A study of Mus musculus with 9 samples.

Results

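Cxcl14 is a gene for a secreted CXC chemokine, and it is described here in 9 RNA-seq libraries of mouse embryonic fibroblasts, primary connective tissue cells grown from embryos of the C57BL/6 strain. It was taken by its symbol, which names 1 row of a table of read counts for 24062 genes, and it passed the filter on low counts. The cells carried a lentivirus with an empty vector (control, 3 libraries), a p21 overexpression vector (3 libraries) or a p16 overexpression vector (3 libraries), and RNA was taken 10 days later. p21 and p16 are inhibitors of cyclin-dependent kinases that stop the cell cycle, and the labels call both kinds of overexpressing cell senescent. The control libraries carry the same status label. The study asked what cells that raise p21 secrete, and it singled out Cxcl14 as a factor of p21 cells that attracts macrophages. The direction of Cxcl14 in p21 cells was therefore known in advance, and the test of it below is not independent evidence. The p16 libraries were registered apart from the other 6, so any separate preparation cannot be told apart from the effect of p16. The labels name no promoter for the vectors and do not tie replicates to embryos or cultures. The p-values therefore reflect the spread among libraries, part of which may be technical.

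Chemokines are small secreted proteins that steer migrating leukocytes through receptors on the cell surface. They are sorted by the spacing of the first cysteines near the amino end: CXC ligands have a single residue between them, CC ligands have none, and CX3C ligands have several. Cxcl14 is best known from skin and other epithelia, where it is made without inflammation, and it attracts monocytes, macrophages and dendritic cells. Its signalling receptor is less well settled than those of the other family members.

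The gene (ENSMUSG00000021508.11) lies on the minus strand of chr13:56288643-56296551 in GRCm38, the assembly also called mm10, and 0 other annotated genes overlap it. GENCODE M21 gives it 2 coding transcripts. Cxcl14-201 has 4 exons and 1827 bases, of which 297 code for 99 residues with 5 cysteines. Cxcl14-202 has 3 exons, because it lacks exon 3 of the first (114 bases, chr13:56292461-56292574), and codes for 61 residues with 4 cysteines. The counts are per gene and do not separate these transcripts. The coding sequences are shown from the start codon to the last coding codon, as they define the protein whose transcript was counted. Capitals mark the codons of the Cys-X-Cys motif, residues 25 to 27 of both forms, and no Glu-Leu-Arg stands directly before it. That triplet is the mark of CXC ligands that attract neutrophils. Cxcl12-202 is set beside them because Cxcl12 is the most abundant ligand of control cells, and its motif lies at residues 30 to 32.
Cxcl14-201: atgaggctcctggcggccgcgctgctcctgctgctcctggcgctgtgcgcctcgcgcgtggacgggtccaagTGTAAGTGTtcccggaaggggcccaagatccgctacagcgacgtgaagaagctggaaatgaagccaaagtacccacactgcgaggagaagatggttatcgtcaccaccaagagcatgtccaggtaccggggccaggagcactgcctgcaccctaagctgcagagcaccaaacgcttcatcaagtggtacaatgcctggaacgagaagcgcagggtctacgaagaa
Cxcl14-202: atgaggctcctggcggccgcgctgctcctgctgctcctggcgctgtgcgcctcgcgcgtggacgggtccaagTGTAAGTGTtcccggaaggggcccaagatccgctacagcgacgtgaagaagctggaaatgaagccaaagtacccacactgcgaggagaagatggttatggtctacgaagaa
Cxcl12-202: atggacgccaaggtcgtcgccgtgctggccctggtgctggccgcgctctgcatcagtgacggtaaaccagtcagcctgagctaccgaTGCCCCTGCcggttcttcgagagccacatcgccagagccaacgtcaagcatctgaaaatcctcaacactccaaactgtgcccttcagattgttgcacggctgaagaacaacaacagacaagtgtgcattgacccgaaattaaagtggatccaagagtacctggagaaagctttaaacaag

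The 250 bases before the start site (RefSeq promoter of GRCm38.p6, chr13:56296552-56296801, minus strand) are shown because Cxcl14 moved in both overexpressing groups. Capitals mark the single match among 12 motifs searched on both strands.
Cxcl14 promoter: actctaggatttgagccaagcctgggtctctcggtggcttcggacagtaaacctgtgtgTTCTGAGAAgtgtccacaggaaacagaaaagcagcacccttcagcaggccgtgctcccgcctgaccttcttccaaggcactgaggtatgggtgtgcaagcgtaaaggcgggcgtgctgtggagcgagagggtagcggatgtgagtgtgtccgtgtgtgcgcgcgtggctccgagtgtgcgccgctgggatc
The match is the STAT pattern TTCNNNGAA, whose first base lies at -191 from the start site, and 7.02% of 32851 mouse promoters of this length hold that pattern. The window has 59.6% GC, against a median of 52.4% over all promoters, and 16 CpG dinucleotides against a median of 6. The other 11 motifs had 0 matches in it. They were TATAAA (in 12.4% of promoters), CCAAT (33.8%), GGGCGG (32.7%), AP-1 TGANTCA (6.75%), CRE TGACGTCA (1.55%), SMAD GTCTAGAC (0.167%), a shorter SMAD pattern GTCTG (42.2%), E2F TTTCGCGC (0.256%), CHR TTTGAA (16%), the E-box CACGTG (6.02%) and an NF-kB core (0.14%). A match is a description of these letters and not a binding site.

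The libraries held 56.9 to 76.1 M counts (M, 10 to the power 6), and the overexpressed genes matched the labels. Levels are given as CPM, counts per M counts of the library after TMM scaling between libraries. Cdkn1a, which encodes p21, had 366 ± 43.6 CPM (mean and SD, n = 3) in control, 1130 ± 76.4 in p21 and 420 ± 22.3 in p16 cells. Cdkn2a, which encodes p16 and p19Arf, had 63.1 ± 5.03, 95.6 ± 16.7 and 1017 ± 64.6 CPM. Reads from the vectors and from the cells' own genes cannot be told apart in these counts. Of the 10 fibroblast markers, 10 passed the filter. Their mean in control ran from 0.872 CPM for Lum to 14548 CPM for Col1a1. In p21 cells 2 of them were called higher and 1, Pdgfra, lower, beside 19.3% and 20.7% of all genes.

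Cxcl14 was lowest in control, intermediate in p16 and highest in p21 cells. Its read counts were 1545, 1866 and 1848 in the control libraries, 2834, 2566 and 2869 in the p16 libraries and 5456, 3595 and 3783 in the p21 libraries. Scaled to library size with TMM, the control libraries had 20.1, 25.6 and 25.8 CPM, the p16 libraries 46.4, 37.6 and 41.7 CPM and the p21 libraries 75.1, 52.5 and 66.2 CPM. The 3 groups did not overlap: the highest control library lay below the lowest p16 library, and the highest p16 library below the lowest p21 library.

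**Figure D1:**
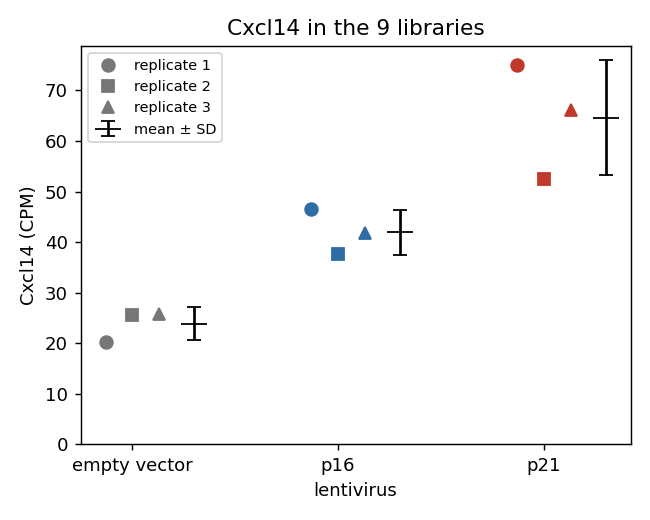
Cxcl14 level in CPM (vertical axis, from 0) in each of the 9 libraries, by lentivirus; symbols mark replicate numbers, and the black bars give the mean ± SD of 3 libraries. Control libraries reach 25.8 CPM, p16 libraries lie between 37.6 and 46.4 CPM, and p21 libraries lie at 52.5 CPM or above.

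In p21 cells Cxcl14 rose 2.71-fold over control, from 23.9 ± 3.21 to 64.6 ± 11.4 CPM (log2 fold change 1.44 ± 0.14 SE, adjusted p = 7.07e-05, edgeR quasi-likelihood F test). Across all tested genes, 19.3% were called higher and 20.7% lower in this comparison at an adjusted p under 0.05. These were 2808 and 3012 genes, against 2465 and 3450 when scaled by library size alone. By size, 315 of 14572 tested genes had a larger log2 fold change. Of the 4321 genes more abundant than Cxcl14, 1076 were called higher, and 4 had a larger fold change. The log2 fold change lay between 1.32 and 1.57 over 18 other settings and stayed past the threshold in each, with adjusted p from 1.37e-22 to 0.000636.

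In p16 cells Cxcl14 rose 1.76-fold over control, to 41.9 ± 4.41 CPM (log2 fold change 0.81 ± 0.14 SE, adjusted p = 0.0124, edgeR). Here 3.57% of tested genes were called higher and 3.65% lower, and of the 520 called higher, 91 had a larger fold change than Cxcl14. With the replicate number as a block, 2473 genes were called in place of 1052. Scaling by library size alone split the calls into 444 higher and 683 lower, against 520 and 532. The call for Cxcl14 was lost without p16 replicate 1, the highest p16 library, where the log2 fold change was 0.73 (adjusted p = 0.0507), and the range over all 18 settings was 8.68e-07 to 0.0507. The p21 and p16 comparisons use the same control libraries.

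Cxcl14 was 1.54-fold higher in p21 than in p16 cells (log2 difference 0.62 ± 0.14 SE, adjusted p = 0.0193, edgeR), which is the test of whether the effects of the vectors differ. In this comparison p21 cells had 6.19% of tested genes called higher and 6.64% called lower. These were 1870 genes, or 3496 with the replicate block. The call is less firm than the others. It was lost without p21 replicate 1 (0.50, adjusted p = 0.0845), without p16 replicate 2 (0.55, adjusted p = 0.0738), without p16 replicate 3 (0.62, adjusted p = 0.0586) and with replicates 1 and 2 only (0.60, adjusted p = 0.0567). Over the 18 settings adjusted p ran from 0.000195 to 0.0845, and the difference stayed positive.

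**Figure D2:**
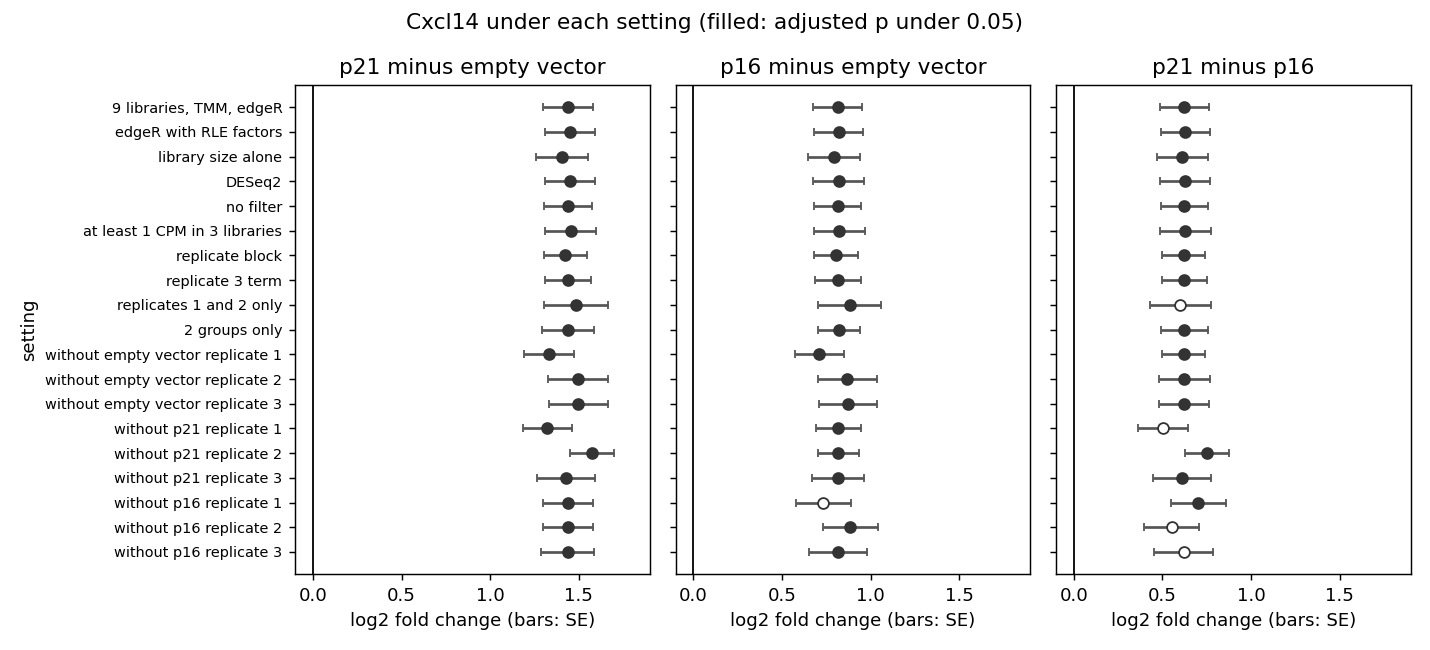
Log2 fold change of Cxcl14 (horizontal axis, bars give the SE) under 19 settings of the analysis (vertical axis) in the 3 comparisons; filled points have an adjusted p under 0.05. The p21 minus control values lie between 1.32 and 1.57 with filled points throughout, whereas 1 point of p16 minus control and 4 of p21 minus p16 are open.

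Levels of different genes are compared per length, as CPM per kb of merged exons. On this scale Cxcl14 ranked 7th of 40 chemokine ligands in control (13.1 ± 1.76), 5th in p16 (23.0 ± 2.41) and 4th in p21 cells (35.4 ± 6.24). The ranks of the group means were the same with the length of the longest transcript. In control cells Cxcl14 lay just below Cx3cl1 (fractalkine, a membrane-tethered ligand; 15.3 ± 1.50), and their ranges overlapped. The next ligand down, Ccl17, a T cell attractant, had 1.43 ± 0.516. In p16 cells Cxcl14 lay between Ccl2 (28.7 ± 1.70) and Cx3cl1 (16.4 ± 1.27) and overlapped neither. In p21 cells it lay between Cxcl12 (38.1 ± 15.2) and Ccl2 (32.8 ± 2.12) and overlapped both.

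**Figure D3:**
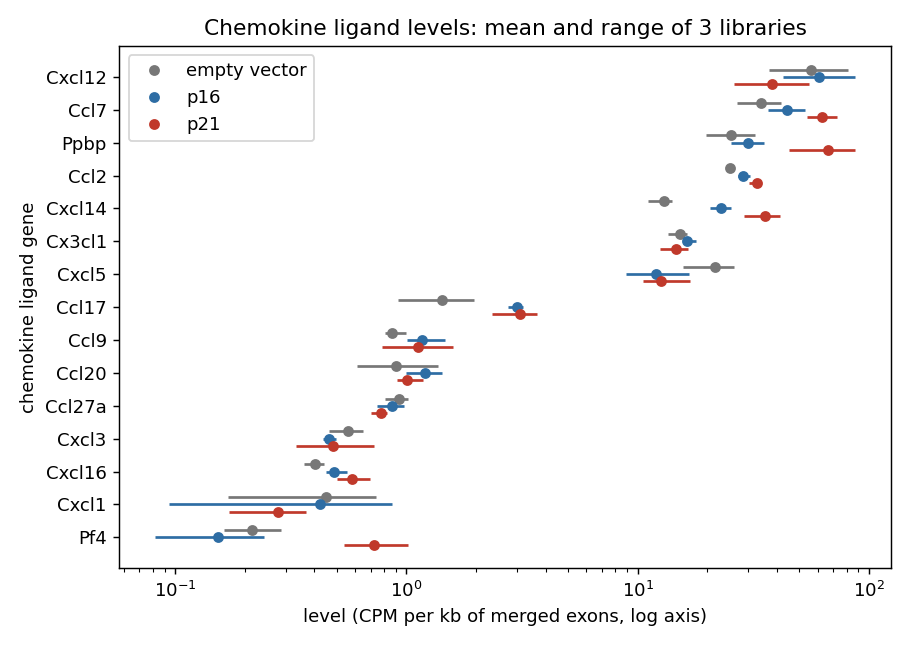
Levels of the chemokine ligands with a mean above 0.3 CPM per kb (horizontal log axis, CPM per kb of merged exons); points are means and lines the range of 3 libraries per group. Cxcl14 moves from 13.1 in control to 23.0 in p16 and 35.4 in p21 cells, with no overlap of the ranges, while Cx3cl1 stays between 14.7 and 16.4.

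Cxcl14 made up 5.70%, 7.17% and 6.87% of the summed ligand level per kb in the control libraries, 11.1%, 9.91% and 9.73% in the p16 libraries and 14.5%, 10.5% and 13.8% in the p21 libraries. The control libraries lay below all others, and the p16 and p21 ranges overlapped. The mean share was 6.58 ± 0.777% in control, 10.3 ± 0.770% in p16 and 12.9 ± 2.15% in p21 cells. A two-sided exact permutation test gave p = 0.1 for p21 against control and for p16 against control, the smallest value that 3 against 3 libraries allow, and 0.2 for p21 against p16. The sum itself was 198 ± 6.29 CPM per kb in control, 224 ± 13.9 in p16 and 273 ± 10.2 in p21 cells. Ccl21c, with no read, had no matched length and adds nothing to it.

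The ligands of the CXC branch did not move as a block in p21 cells. Of 15 listed, 11 were tested, 5 rose and 1 fell, against 19.3% of all genes higher and 20.7% lower. Their median log2 fold change was -0.22, against -0.01 over all tested genes. Beside Cxcl14, the abundant member that rose was Ppbp, a platelet and neutrophil-attracting ligand. It had 34.7, 26.2 and 21.4 CPM in control, 37.9, 31.7 and 27.5 CPM in p16 and 73.0, 94.7 and 49.0 CPM in p21 cells. The p21 libraries lay above all others. Its log2 fold change was 1.40 ± 0.24 SE in p21 cells (adjusted p = 0.00161, edgeR) and 0.24 ± 0.24 in p16 cells (adjusted p = 0.598).

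Cxcl12, the homing ligand of stem cells and lymphocytes, had 303, 416 and 663 CPM in control, 349, 430 and 710 CPM in p16 and 213, 271 and 452 CPM in p21 cells. The groups overlapped, and the log2 fold change in p21 cells was -0.56 ± 0.36 SE (adjusted p = 0.242, edgeR). It was called lower with replicates 1 and 2 only (adjusted p = 0.0266), with a replicate 3 term (0.00189) and with the replicate block (3.34e-06), and not called in the other 15 settings. Cxcl14 amounted to 29.8, 27.6 and 17.4 per 100 of Cxcl12 per kb in control, 59.6, 39.2 and 26.3 in p16 and 158, 86.7 and 65.6 in p21 libraries. The p21 libraries lay above all others. Without Cxcl12 in the sum, the share of Cxcl14 was 9.38 ± 2.18% in control, 14.1 ± 1.15% in p16 and 15.1 ± 2.87% in p21 cells.

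Cxcl5, a neutrophil attractant, was the CXC ligand that fell in p21 cells, from 48.8, 42.5 and 29.2 CPM in control to 31.2, 19.7 and 19.7 CPM (log2 fold change -0.77 ± 0.27 SE, adjusted p = 0.0474, edgeR). The groups overlapped, and the call was lost in 7 of 18 other settings. The remaining CXC calls rest on low counts. Pf4, a platelet ligand, rose by 1.73 ± 0.43 SE on the log2 scale (adjusted p = 0.0101, edgeR) from levels of 0.117 to 0.206 CPM in control to 0.386 to 0.735 CPM. Cxcl15, known from lung epithelium, had 0.0261 to 0.151 CPM in control and 0.263 to 0.385 CPM in p21 cells (adjusted p = 0.0473). Cxcl16, the ligand of Cxcr6, had 1.09 to 1.33 CPM in control and 1.52 to 2.10 CPM in p21 cells (adjusted p = 0.0466). The last calls were fragile, being lost in 11 of 17 settings for Cxcl15 and in 12 of 18 for Cxcl16.

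Of the 25 ligands of the CC, C and CX3C branches, 11 were tested in p21 cells. Of these, 3 rose and 0 fell, beside 19.3% and 20.7% of all genes, and 3 had an unadjusted p under 0.05. Their median log2 fold change was 0.36. Ccl2, a monocyte attractant, had 27.6, 29.6 and 28.5 CPM in control, 34.7, 32.4 and 30.8 CPM in p16 and 38.5, 34.5 and 38.8 CPM in p21 cells, a rise of 0.38 ± 0.06 SE (log2, adjusted p = 0.00128, edgeR) in p21 cells. The p21 libraries lay above the control libraries. Ccl7, a related monocyte attractant, rose by 0.87 ± 0.18 (log2, adjusted p = 0.0040), from 33.5, 27.3 and 21.6 CPM in control to 58.3, 49.3 and 43.2 CPM. Ccl17 rose by 1.12 ± 0.27 (log2, adjusted p = 0.0098). Cx3cl1 had a log2 fold change of -0.06 ± 0.11 SE (adjusted p = 0.674) and its groups overlapped. Ppbp and Cxcl14 thus had the largest folds among the 7 most abundant ligands, 2.63 and 2.71, and no difference between genes was tested.

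Over both branches, p21 cells had 8 of 22 tested ligands higher and 1 lower, beside 19.3% and 20.7% of all genes. In p16 cells 2 were higher and 0 lower, beside 3.57% and 3.65% of all genes, and 5 had an unadjusted p under 0.05. These 2 were Cxcl14 and Ccl17, which rose by 1.07 ± 0.27 SE (log2, adjusted p = 0.0463, edgeR), a call lost in 9 of 18 settings. With the replicate number as a block, 4 ligands were called in p16 cells. Without p16 replicate 1 none was, and without any 1 of 6 other libraries 1 was. Between p21 and p16 cells, 3 ligands differed, Cxcl14, Ppbp and Pf4, each higher in p21 cells, where 6.19% of all genes were. With the block 6 were called. That count was 0 without p16 replicate 2 and 1 without p21 replicate 1 or p16 replicate 3. Of the other ligands listed, 13 had reads but did not pass the filter and 5 had none.

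**Figure D4:**
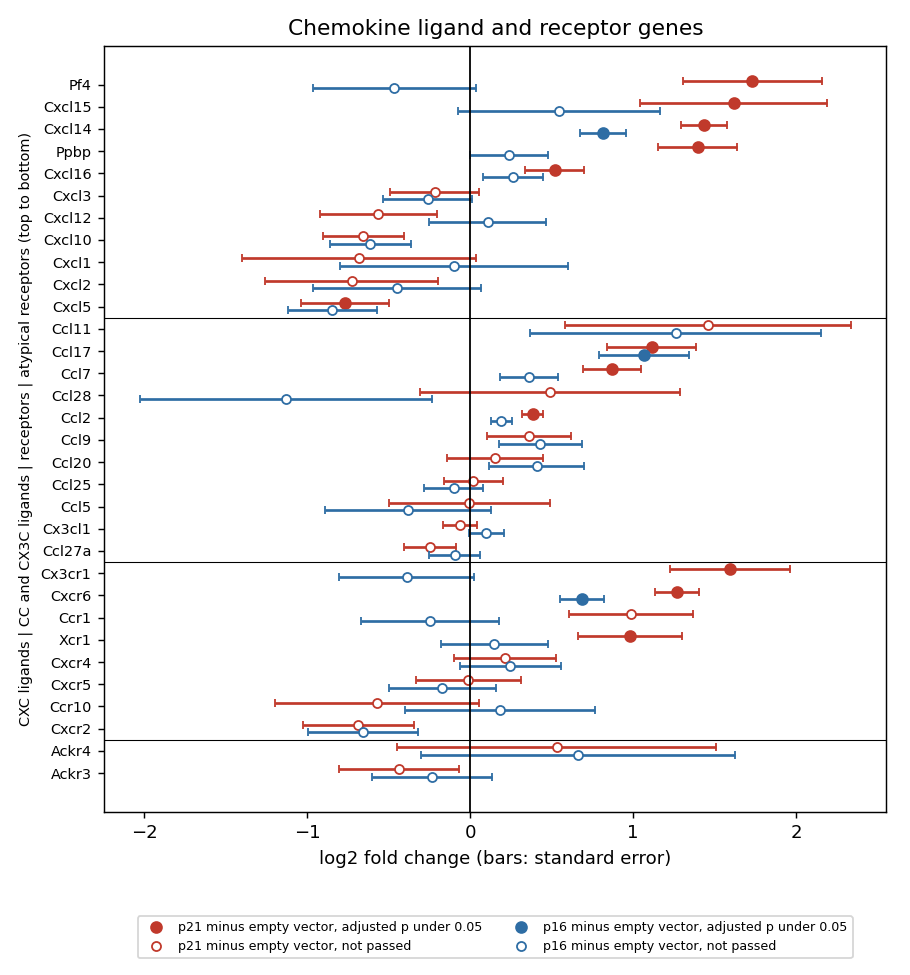
Log2 fold change (horizontal axis, bars give the SE) of the tested chemokine ligand and receptor genes in p21 (red) and p16 (blue) against control cells; filled points have an adjusted p under 0.05. Cxcl14, Ccl17 and Cxcr6 are filled in both colours, and Cxcl5 is the single filled point below 0.

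Among receptors, the pattern of Cxcr6 resembled that of Cxcl14. Cxcr6, which binds Cxcl16, had 6.70, 8.38 and 6.68 CPM in control, 12.7, 12.1 and 10.2 CPM in p16 and 19.9, 15.1 and 17.4 CPM in p21 cells. The 3 groups did not overlap. It rose by 1.27 ± 0.13 SE in p21 (log2, adjusted p = 9.94e-05, edgeR) and by 0.69 ± 0.13 in p16 cells (adjusted p = 0.0190), and was higher in p21 than in p16 cells by 0.58 ± 0.13 (adjusted p = 0.0197). The p16 call was lost without p16 replicate 1 or 2, and the last call without p21 replicate 1, without p16 replicate 2 or 3, and with replicates 1 and 2 only. Ackr3, an atypical receptor that takes up Cxcl12, was the most abundant receptor gene in control cells with 12.5, 19.5 and 29.4 CPM, and in p21 cells had 10.2, 12.7 and 22.6 CPM. These groups overlapped (log2 fold change -0.44 ± 0.37 SE, adjusted p = 0.376).

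Of 23 receptors listed, 10 were tested, and in p21 cells 3 rose and 0 fell, beside 19.3% and 20.7% of all genes. The others were Xcr1, the receptor of Xcl1, with 0.767 to 0.989 CPM in control and 1.30 to 2.36 CPM in p21 cells (adjusted p = 0.0348, edgeR), and Cx3cr1, the receptor of Cx3cl1, with 0.183 to 0.302 and 0.413 to 1.02 CPM (adjusted p = 0.00742). The call for Xcr1 was lost in 4 settings. In p16 cells 1 receptor was called higher, beside 3.57% of all genes. Between p21 and p16 cells 2 were, Cxcr6 and Cx3cr1, beside 6.19%. Without p16 replicate 1 or 2 the p16 count was 0, and without p21 replicate 1 or any p16 library the last count was 1.

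Other factors that attract or feed macrophages had smaller fold changes than Cxcl14 where they were called. Of 16 listed, 11 were tested, and p21 cells had 4 of them higher and 2 lower, beside shares over all genes of 19.3% and 20.7%. Spp1 (osteopontin) had 327, 421 and 406 CPM in control, 478, 428 and 461 CPM in p16 and 658, 601 and 797 CPM in p21 cells, a rise of 0.83 ± 0.12 SE in p21 cells (log2, adjusted p = 0.000514, edgeR). Csf1 and Il34, ligands of the macrophage growth factor receptor, rose by 0.66 ± 0.24 (adjusted p = 0.0479) and 0.63 ± 0.10 (adjusted p = 0.000983). The Csf1 groups overlapped. Lgals3 (galectin-3) rose by 0.35 ± 0.11 (adjusted p = 0.0360). Mif, a cytokine that restrains macrophage migration, fell by 0.39 ± 0.08 (adjusted p = 0.00306), and Hmgb1, a chromatin protein that acts as an alarm signal outside the cell, fell by 0.86 ± 0.07 (adjusted p = 2.12e-05). In p16 cells Thbs1, an adhesive matrix glycoprotein, rose by 0.26 ± 0.06 (adjusted p = 0.0244) and Hmgb1 fell by 0.39 ± 0.07 (adjusted p = 0.0112).

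Macrophage marker transcripts were higher in p21 cells. The summed level of 12 markers was 12.6 to 13.9 CPM in control, 10.7 to 13.6 CPM in p16 and 23.3 to 40.9 CPM in p21 cells. Of 10 markers tested, 7 were higher in p21 cells and 0 in p16 cells by edgeR, where 1 had an unadjusted p under 0.05, and 6 were higher in p21 than in p16 cells. The shares of all genes called higher in these comparisons were 19.3%, 3.57% and 6.19%. Lyz2, the most abundant, had 3.13 to 4.64 CPM in control and 12.3 to 23.3 CPM in p21 cells, and Ptprc, the pan-leukocyte antigen CD45, 0.247 and 0.746 CPM on average. Cd68, Cd14 and Itgam were tested and not called in p21 cells (adjusted p = 0.412, 0.756 and 0.0750, edgeR). No marker was at 0 in all libraries. In bulk RNA, a change in the number of cells of a type and a change in RNA per cell cannot be told apart. In p16 cells Cxcl14 was 1.76-fold above control with a sum of all 12 markers that overlapped control. That overlap depended on Lyz2. Without Lyz2 the sum was 9.25 to 9.51 CPM in control, 7.69 to 8.79 CPM in p16 and 10.98 to 17.65 CPM in p21 cells. These ranges did not overlap, and the p16 libraries lay lowest. The part of the macrophage marker transcripts in the p21 result was not tested.

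**Figure D5:**
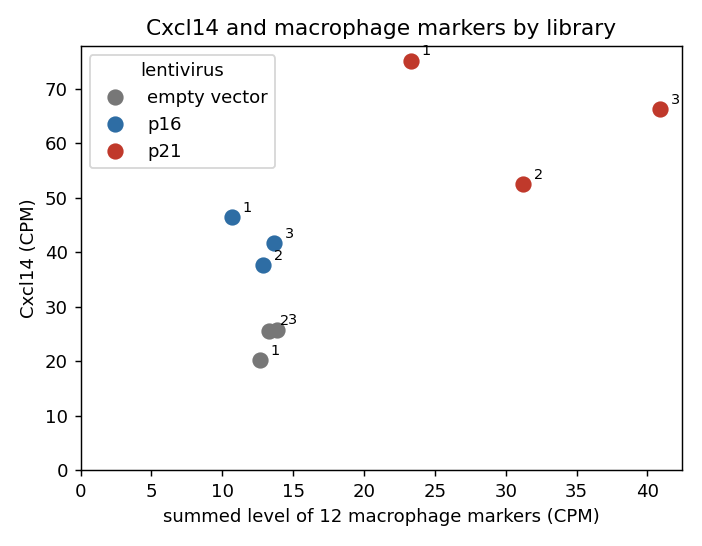
Cxcl14 level (vertical axis, CPM) against the summed level of 12 macrophage markers (horizontal axis, CPM) in the 9 libraries; numbers beside the points are replicates. p16 libraries lie above the control libraries at marker sums of 10.7 to 13.6 CPM, and p21 libraries lie at 23.3 to 40.9 CPM.

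Markers of other cell types were at low levels, keratinocytes, a known source of Cxcl14, among them. The 8 keratinocyte and epithelial markers summed to 4.88 to 10.5 CPM in control, 6.79 to 8.46 CPM in p16 and 8.28 to 9.82 CPM in p21 cells, mostly Krt18, a keratin of simple epithelia. Of 4 tested, 0 were called in p21 or p16 cells by edgeR, and 0 had an unadjusted p under 0.05. The 6 endothelial markers summed to 3.93 to 5.53 CPM in control, 5.64 to 7.63 CPM in p16 and 5.38 to 7.84 CPM in p21 cells. Of 5 tested, 1 was called higher and 0 lower in p21 cells by edgeR, and likewise in p16 cells. The shares of all genes called higher were 19.3% and 3.57%. The gene called in both groups was Emcn, a sialomucin of vessel walls. Of 5 adipocyte markers, Lep and Cidec had no read in any library, and Fabp4 was the most abundant, with 9.65 CPM in control and 12.1 CPM in p21 cells (adjusted p = 0.486). Their part in the result was not tested.

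None of the 4 tested neighbours of Cxcl14 on chromosome 13 was called higher in p21 or p16 cells than in control. Over all genes, 19.3% and 3.57% were, so few of any 4 genes would be called. Among 5 protein-coding genes on each side, Neurog1 and Il9 had no read, and Tifab, Catsper3, Slc25a48 and Lect2 had too few reads to be tested. H2afy, the gene of the histone variant macroH2A1, lies 152.3 kb away and fell from 119 ± 7.76 to 102 ± 2.11 CPM in p21 cells (log2 fold change -0.22, adjusted p = 0.00929, edgeR). Pitx1, a limb transcription factor 452.5 kb away, had a log2 fold change of 0.22 in p21 cells (adjusted p = 0.304) and was higher in p21 than in p16 cells by 0.58 (adjusted p = 0.0494). Fbxl21, 225.9 kb away, had 0.603 ± 0.110 CPM in control and 0.850 ± 0.162 CPM in p21 cells (adjusted p = 0.204). Tgfbi, a matrix protein gene 313 kb away, had 96.8 ± 52.9 CPM in control and 63.7 ± 33.6 CPM in p21 cells (adjusted p = 0.348).

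Among the 10445 genes whose log2 CPM averaged 2 or more, the patterns most like that of Cxcl14 over the 9 libraries were those of Lyrm5, Rab33b, Sdf2, Oaz2, Fkbp9 and Ccng2. Pearson's r on log2 CPM was 0.996 for Lyrm5 and Rab33b, 0.991 for Sdf2 and 0.986 for each of the others. The points share 3 groups and their libraries, and 583 genes reached 0.9, so the ranking among them is close. By Spearman's rho, 1 of these 6 was among the top 6. Lyrm5, a mitochondrial protein gene, had 8.78, 9.97 and 10.1 CPM in control, 13.1, 11.6 and 12.1 CPM in p16 and 15.2, 13.6 and 15.1 CPM in p21 cells. These groups did not overlap, and they ordered as for Cxcl14.

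The changes of the 6 genes in p21 cells were smaller than that of Cxcl14: 1.52-fold for Lyrm5, 1.20-fold for Rab33b (a Golgi GTPase), 1.28-fold for Sdf2, 1.30-fold for Oaz2 (an antizyme of polyamine synthesis), 1.20-fold for Fkbp9 and 1.55-fold for Ccng2 (cyclin G2). Each was called higher, beside 19.3% of all genes. Their choice by likeness to Cxcl14 over the 3 groups favours such calls, so these are not a separate result. With each group's mean subtracted, the 4 most alike were Rin2 (0.985), Stk38 (0.968), Rab33b (0.959) and Nnmt (0.955), and over all 9 libraries Rin2 had r = 0.03. Of the abundant chemokine genes, Cxcr6 had r = 0.972 and Ccl2 0.967, Ccl7 had 0.800 and Ppbp 0.718, and Cxcl12 (-0.35) and Cxcl5 (-0.57) were negative.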

How the data were processed

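Per the labels' protocols, the TruSeq RNA v2 kit, an unstranded method, was used for all 9 libraries. The authors deposited whole-number read counts per gene symbol, not normalised. The submitters' processing notes list featureCounts 1.4.6 with Subread, Bowtie2 2.2.6, TopHat2 2.0.14 and the build mm10. Annotation, strand setting and multimapping rule: not given in the sources used here. Groups and replicate numbers came from sample titles. Genes passing edgeR's filterByExpr (14572 of 24062) entered 1 quasi-likelihood fit of 3 group means over 9 libraries (edgeR 4.0.16, R 4.3.3, TMM scaling), with Benjamini-Hochberg adjustment over all of them and a threshold of 0.05. This fit held no replicate term, so its SE and adjusted p ignore any pairing of same-numbered libraries. The SE was derived from the fold change and its F statistic. CPM are counts scaled to a library of 10 to the power 6 after TMM. Lengths are merged exons of GENCODE M21. Replicates differed by more than sampling noise (chi-square per degree of freedom 10.4 to 101) and were kept apart. Alternatives were other scalings and filters, DESeq2 1.42.0, replicate terms and leaving out libraries. The test was tested on simulated data.

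Cxcl14 and the gene lists (chemokine ligands, receptors, other attractants, and markers of 5 cell types) were chosen with earlier results of these data known. Named genes were the overexpressed genes, listed ligands, receptors and attractants called in any comparison, the most abundant of them, 5 neighbours a side, the genes most like Cxcl14, and the most abundant and absent members of each marker list. Adgre1 was found under its older symbol Emr1. Deviations of same-numbered libraries from their group means correlated at 0.109 to 0.545 between control and p16, against -0.453 to 0.299 for different numbers. Between p21 and p16 the ranges were 0.159 to 0.478 and -0.354 to 0.144. These did not overlap, but they lay close, and the highest value, 0.478, was that of replicate 3 with replicate 3. They do not settle a pairing of all 3 numbers. Between control and p21 the ranges were 0.0253 to 0.489 and -0.456 to 0.358. Ranges of same and different numbers overlapped in both comparisons with control, which leaves pairing there unsettled. Replicate 3 of each group differed in sex-linked transcripts, in the same direction. Xist had 397, 158 and 262 CPM in replicate 3 of control, p21 and p16 cells, and 1.34 CPM or less in the other libraries. Ddx3y had 1.10, 10.8 and 1.26 CPM in replicate 3, and 50.1 CPM or more in the others.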

Additional observations from a re-analysis of the deposited data

Results flagged for a closer look

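The p21 and p16 effects, tested against each other with edgeR, differed for 8 of the chemokine, receptor and attractant genes listed. Tested were 22 ligands, 10 receptors and 11 attractants, and over all genes 6.19% were called higher and 6.64% lower. On the log2 scale the p21 effect exceeded the p16 effect by 0.62 for Cxcl14, 2.20 for Pf4, 1.16 for Ppbp, 0.58 for Cxcr6, 1.99 for Cx3cr1, 0.59 for Spp1 and 0.47 for Lgals3, with adjusted p of 0.0193, 0.0147, 0.0150, 0.0197, 0.0114, 0.0121 and 0.0282. For Hmgb1 the difference was -0.47 (adjusted p = 0.00278), as it fell further in p21 cells. Cx3cr1 is also among the 12 macrophage markers whose summed level was higher in p21 cells, and Pf4 and Cx3cr1 lay at 1.02 CPM or less in every library.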

How the results depend on the processing

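Leaving out 1 library at a time gave log2 fold changes of Cxcl14 from 1.32 to 1.57 in p21 and from 0.71 to 0.89 in p16 against control, and from 0.50 to 0.75 in p21 against p16, which was 0.60 with replicates 1 and 2 only. The replicate block gave 1.42, 0.80 and 0.62 (adjusted p = 7.69e-06, 0.00241 and 0.00459), and it ended no call for Cxcl14. Of 23 other named fold changes under 409 alternatives in all, 337 kept direction and side of the threshold, 58 were no longer called, 12 became called and 2 reversed: Cxcl12 in p16 cells without control replicate 1 (-0.12) or p16 replicate 3 (-0.24), in a range of -0.24 to 0.46 without 1 library. Genes called in p16 cells numbered 1052, against 2473 with the replicate block, 2645 with a replicate 3 term, 1808 with DESeq2, 582 with replicates 1 and 2 only, 555 with 2 groups only and 219 to 994 without 1 library. For ligands the main count was 2, against 4 with the block, 4 with the replicate 3 term, 1 with replicates 1 and 2 only, 1 with 2 groups only and 0 to 2 without 1 library, and for receptors 1 against 0 to 1 without 1 library. Between p21 and p16, 1870 genes were called, against 3496 with the block, 3622 with the replicate 3 term and 616 to 2469 without 1 library. The ligand count was 3, against 6 with the block, 7 with the replicate 3 term, 5 with DESeq2 and 0 to 3 without 1 library. The receptor count was 2, against 1 with a filter of at least 1 CPM in 3 libraries, 0 with replicates 1 and 2 only and 1 to 2 without 1 library. The p21 minus control difference in ligand share was 6.36 percentage points, 11.8 within CXC ligands only and 5.57 to 7.59 without 1 library. The cause of these shifts was not tested, beyond the fewer samples of the smaller fits. With Lyz2 left out, the summed macrophage markers of p16 libraries lay below those of control libraries in place of overlapping them. Low counts limit Pf4, Cxcl15, Xcr1 and Cx3cr1.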
